A study of Mus musculus with 6 samples.

Results

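Hox genes encode homeodomain transcription factors that give cells along the head-to-tail axis their regional identity. They lie in 4 clusters, Hoxa to Hoxd, and are numbered as paralog groups 1 to 13 in the order in which they sit on the chromosome. Low numbers are expressed up to anterior levels and high numbers only at posterior levels, and the pattern set in the embryo is partly kept in adult tissue. In the peripheral nervous system Hox genes are known for roles in the identity of motor and sensory neurons at each level of the trunk, and Hoxd1 is known for its part in the wiring of mouse nociceptors.

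The 38 protein-coding Hox genes described here were chosen by name, as rows whose Ensembl identifier carries a Hoxa, Hoxb, Hoxc or Hoxd symbol with a paralog number, out of 47937 rows in the table of read counts. RNA was sequenced from the dorsal root ganglia (DRGs) of 3 control and 3 Tlx3cko mice on the C57BL/6 strain, aged about 2 months. In the labels the controls are wild type and the mutants are Tlx3f/f;SNS-cre. SNS-cre expresses Cre recombinase from the gene of the sodium channel Nav1.8, so that Tlx3, a homeobox transcription factor outside the Hox clusters, is lost in Nav1.8-expressing nociceptive neurons and not in the other cells of the ganglion. Cervical, thoracic and lumbar DRGs were pooled, and the number of ganglia from each level in a library is not given in the sources used here. Each library is treated as 1 mouse. Nothing in the labels says whether littermates were used, so the p-values measure the spread between these libraries.

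The libraries held between 11458299 and 18775628 counts. The 9 markers of sensory neurons were all detected, with summed levels of 160510 to 169252 normalized counts in controls and 186689 to 194798 in Tlx3cko libraries, so the defining markers of the labelled tissue were present. A normalized count is the count a library would have at the mean effective library size, 14970767. Tlx3 had 1828, 2262 and 2433 counts in controls and 1717, 1052 and 1475 counts in Tlx3cko libraries, 72.7% of the control level. Xist had 591 and 493 counts in control replicates 1 and 2, which had 0 on the Y-linked Ddx3y. In the other 4 libraries Xist had at most 2 counts and Ddx3y at least 273. Sex was therefore not balanced between the genotypes. For several members, fold changes against control replicate 3 alone are given without a p, since that arm is a single library and its spread cannot be measured.

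Paralog group 11, the most posterior group with any reads, holds the members furthest from 0 in fold change and is described in most detail. Its members Hoxa11, Hoxc11 and Hoxd11 are known from the development of the limb skeleton, the kidney and the lumbosacral spinal cord. The homeobox, the part of the gene that encodes the DNA-binding homeodomain, is 180 bases long and lies in exon 2 in each of them. It is shown because these 3 genes share more homeobox bases with each other than with any other Hox gene, and their reads have to be told apart. The sequences are those of the reference genome GRCm38, at chr6:52243402-52243581 on the minus strand for Hoxa11, chr15:102956480-102956659 on the plus strand for Hoxc11 and chr2:74683917-74684096 on the plus strand for Hoxd11. Capitals mark the 45 positions at which the 3 genes do not all carry the same base.
Hoxa11: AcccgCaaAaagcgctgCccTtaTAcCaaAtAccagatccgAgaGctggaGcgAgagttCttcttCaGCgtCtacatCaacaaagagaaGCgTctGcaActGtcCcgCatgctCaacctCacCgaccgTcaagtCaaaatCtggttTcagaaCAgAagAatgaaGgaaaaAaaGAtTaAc
Hoxc11: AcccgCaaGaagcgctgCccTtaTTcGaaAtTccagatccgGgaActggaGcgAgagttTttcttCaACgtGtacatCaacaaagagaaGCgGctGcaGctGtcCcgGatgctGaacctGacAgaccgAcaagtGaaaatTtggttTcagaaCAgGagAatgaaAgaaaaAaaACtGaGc
Hoxd11: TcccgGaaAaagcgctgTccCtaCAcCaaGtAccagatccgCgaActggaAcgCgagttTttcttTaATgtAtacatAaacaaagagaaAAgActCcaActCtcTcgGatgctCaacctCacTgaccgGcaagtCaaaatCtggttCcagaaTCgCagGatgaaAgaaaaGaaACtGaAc

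Hoxa11 and Hoxc11 differed at 24 of these bases, Hoxa11 and Hoxd11 at 35, and Hoxc11 and Hoxd11 at 37. Over whole annotated transcripts, the longest run of identical bases shared with any other Hox gene was 24 bases for Hoxa11 and 29 bases for Hoxd11, both with Hoxb9. For Hoxc11 it was 20 bases, shared with Hoxa11.

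In control DRGs Hox transcripts were present from paralog group 1 to group 11 and stopped there. All 6 members of groups 12 and 13 (Hoxc12, Hoxd12, Hoxa13, Hoxb13, Hoxc13 and Hoxd13) had 0 counts in every library, and so did Hoxb1. A count of 0 allows up to 3 counts in each library, a limit that covers counting error only. The other 31 members had at least 10 counts over the 6 libraries and were tested in a fit of 20006 genes.

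**Figure D1:**
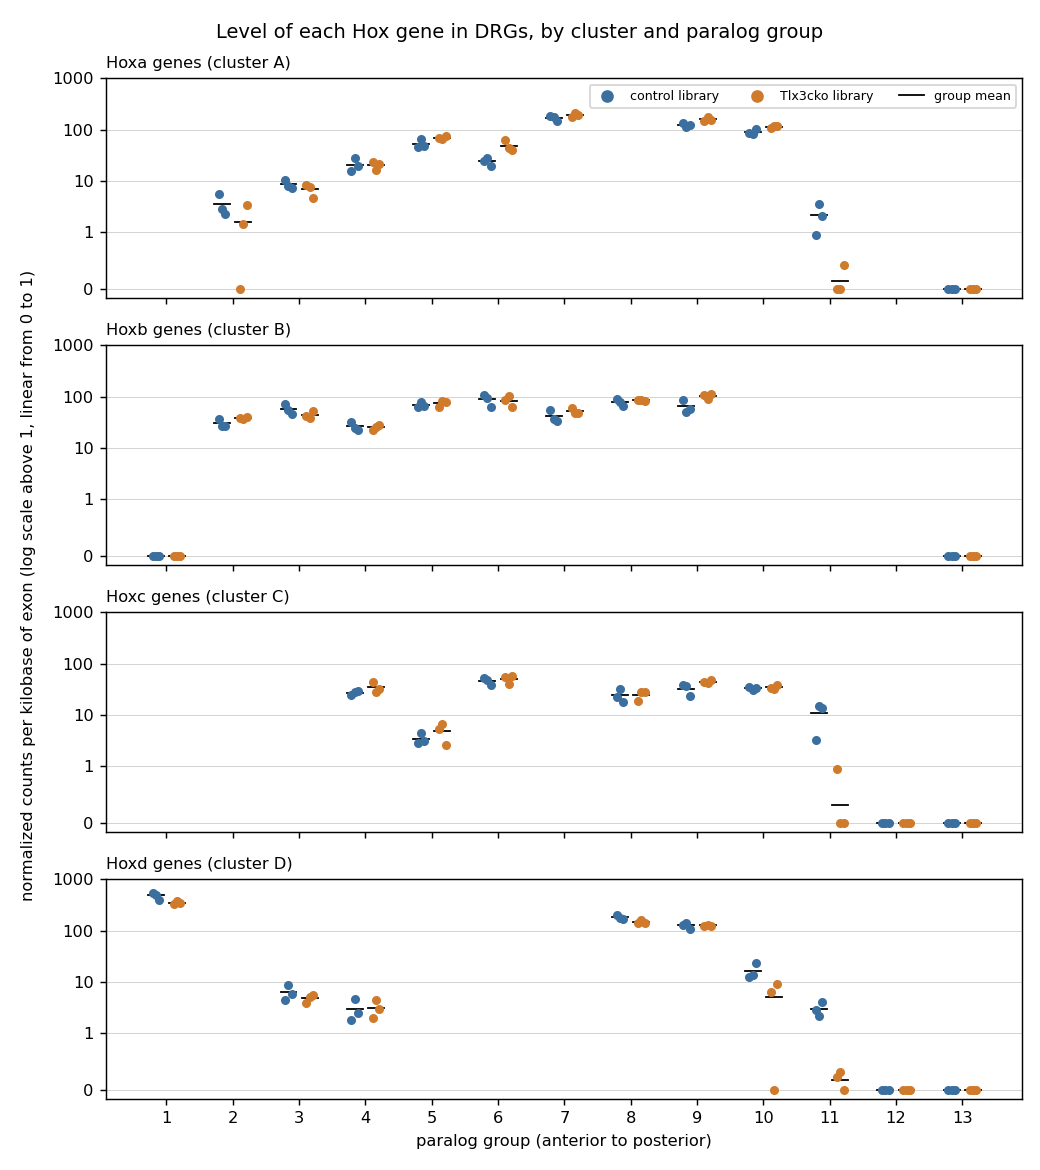
Normalized counts per kilobase of exon (vertical axis, logarithmic above 1 and linear from 0 to 1) of each Hox gene against its paralog group (horizontal axis), in 1 panel per cluster; points are libraries and black lines group means. Hoxd1 stands highest at 489 in control libraries, levels fall steeply from group 10 to group 11, and all genes of groups 12 and 13 lie at 0.

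Compared per kilobase of exon, the level in control DRGs was highest for Hoxd1, with 489 ± 77.3 normalized counts per kilobase (SD, n = 3). Hoxd8 (183 ± 16.9) and Hoxa7 (170 ± 20.6) came next and did not differ beyond their spread. They were followed by Hoxd9 (127 ± 19.4) and Hoxa9 (123 ± 11.1), which also lay within their spread of each other. Hoxa10 (90.3 ± 11.2), Hoxb6 (88.3 ± 22.3), Hoxb8 (79.5 ± 12.5), Hoxb5 (69.8 ± 7.88) and Hoxb9 (64.5 ± 18.5) formed a further set of neighbours whose SDs overlap. The highest member of cluster C was Hoxc6, with 45.7 ± 6.69. At the lower end, Hoxc11 had 10.8 ± 6.60, Hoxd11 3.04 ± 1.04 and Hoxa11 2.18 ± 1.27 normalized counts per kilobase in control libraries. The 10 highest members were the same in Tlx3cko as in control libraries, and 9 of them were among the 10 highest when the longest transcript was used as the length. With that length the order after Hoxd1 turned to Hoxa7 (241), Hoxa9 (213), Hoxd8 (191) and Hoxd9 (127), so the order among these 4 depends on the annotation. For Hoxd3 and Hoxd4, 62.3% and 52.3% of the exon bases lie under another gene on the same strand, so their counts depend on how shared reads were assigned.

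Between the genotypes, 2 of the 31 tested members passed an adjusted p under 0.05, Hoxc11 and Hoxd11, both lower in Tlx3cko DRGs. That is 6.45% of the tested members, beside 4.25% of all genes tested, of which 2.56% passed in the lower and 1.69% in the higher direction. The share past the threshold is near that of all genes. Over the tested members 13 log2 fold changes were negative and 18 positive, with a median of 0.05 beside 0.00 over all genes tested. In 6 members (19.4%) the Tlx3cko libraries all lay below the controls and in 6 (19.4%) all above, beside 10.8% and 8.87% of all genes. The share of members higher without overlap was above that of all genes. In either direction, the 6 lower and 6 higher of the 31 tested members together stand beside 19.7% of all genes. Hoxa11, Hoxc11 and Hoxd11 are 3 of the 6 lower members. They reached the minimum of 10 counts through the control libraries alone, so they could enter the test only by being higher there. The lower share, and the share in either direction, therefore cannot be read as an excess over all genes. In 21 members the 95% interval of the log2 fold change stayed within 1 log2 unit of 0.

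**Figure D2:**
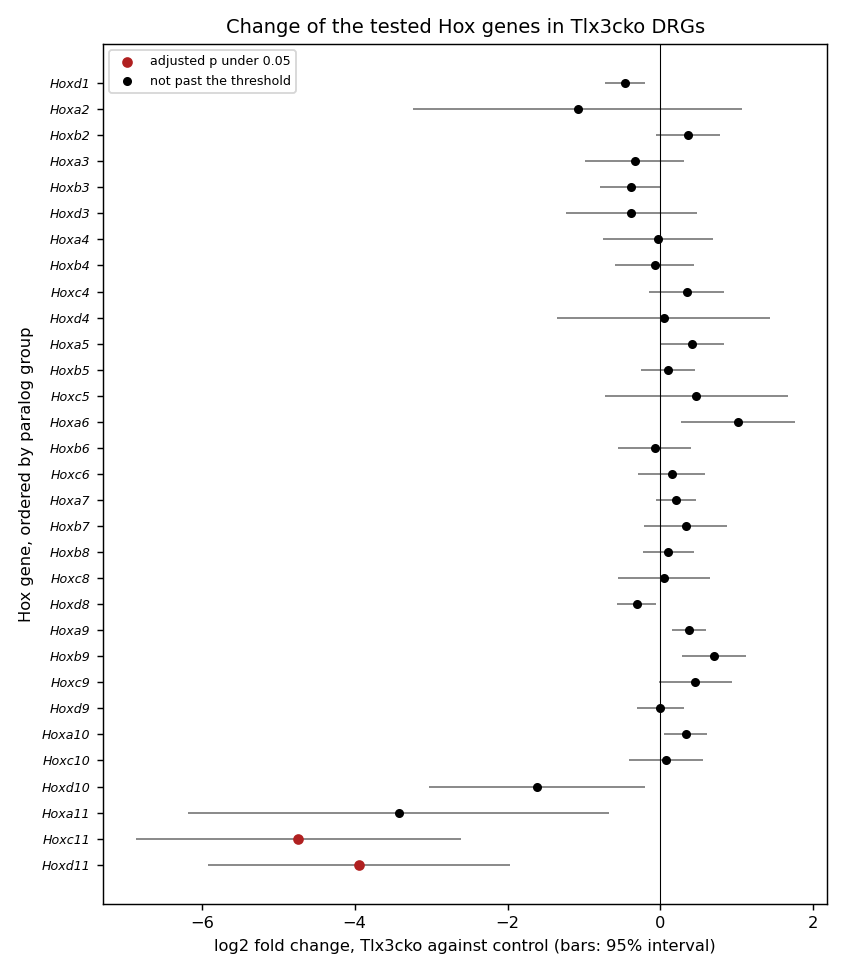
Log2 fold change of Tlx3cko against control (horizontal axis) for the 31 tested Hox genes, ordered from group 1 at the top to group 11 at the bottom; bars are 95% intervals and red points mark adjusted p under 0.05. Hoxd10, Hoxa11, Hoxc11 and Hoxd11 lie furthest to the left, between -4.74 and -1.61, and the other genes lie within about 1 log2 unit of 0.

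Control replicates 1, 2 and 3 held 6, 31 and 35 counts of Hoxc11, and the Tlx3cko libraries held 2, 0 and 0. The groups did not overlap, and control replicate 1 was far below the other controls. Scaled for depth, the Tlx3cko libraries held 3.14% of the control level, with an exact 95% counting interval from 0.373% to 11.8% that rests on 72 against 2 counts. The fitted log2 fold change was -4.74 (SE 0.98, adjusted p = 0.0142, edgeR quasi-likelihood F test, Benjamini-Hochberg over all genes tested). At counts near 0 this value depends on the prior count of the fit and is no bound. The call was kept without control replicate 1 (adjusted p = 0.0049) or Tlx3cko replicate 1 (0.0245) and lost without any 1 of the other 4 libraries, where the highest adjusted p was 0.0666. Over these 6 fits the log2 fold change ranged from -7.45 to -4.18. Against control replicate 3 alone, whose Xist and Ddx3y counts resemble those of the Tlx3cko libraries, it was -5.09. Hoxc11 shares no annotated exon base with another gene.

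Hoxd11 had 11, 9 and 22 counts in the controls and 1, 1 and 0 counts in the Tlx3cko libraries. All 3 controls lay above all 3 Tlx3cko libraries. The Tlx3cko level was 5.38% of control, with an exact 95% counting interval from 0.631% to 20.7% on 42 against 2 counts. The log2 fold change was -3.95 (SE 0.91, adjusted p = 0.0268 from the same edgeR test). Of 6 fits with 1 library removed in each, 1 kept the call, the fit without control replicate 1 (adjusted p = 0.0465), and the highest adjusted p was 0.1163 without control replicate 3. Against control replicate 3 alone the log2 fold change was -4.40. With the limma-voom test the adjusted p was 0.0821 for Hoxc11 and 0.0532 for Hoxd11. Of the exon bases of Hoxd11, 10.8% lie under the overlapping gene Gm28309 on the same strand.

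Hoxa11 had 2, 8 and 6 counts in the controls and 0, 0 and 1 counts in the Tlx3cko libraries, again without overlap. The Tlx3cko level was 7.06% of control, with an exact 95% counting interval from 0.168% to 45.5%. Its log2 fold change of -3.42 (SE 1.27) had an adjusted p of 0.2016 in the edgeR test and did not pass the threshold. An antisense gene, Hoxa11os, covers 35.0% of its exon bases, and its reads cannot be separated if strand was not used in counting.

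Summed over group 11, the control libraries held 20.5, 47.9 and 50.3 normalized counts and the Tlx3cko libraries 2.89, 1.31 and 0.984. This was 0.798% ± 0.382 (SD, n = 3) of all Hox counts in controls and 0.033% ± 0.021 in Tlx3cko libraries. The ratio of the means was 0.044, and it was between 0.029 and 0.053 when each library was left out in turn. Group 11 was singled out for its fold changes, and its members entered the test through the controls alone. This narrow range is therefore no support for the difference. With 1 library left out, Hoxc11 kept its call in 2 of 6 fits and Hoxd11 in 1. In bulk RNA, fewer cells that express these genes and less RNA per cell cannot be told apart. Cervical, thoracic and lumbar ganglia were pooled in numbers that are not given. A difference between libraries in the share of lumbar ganglia therefore cannot be told apart from a difference between genotypes.

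Markers of other cells that can enter a DRG sample moved between the same libraries. Of 7 tested markers of fibroblasts and meninges 4 passed the threshold as lower in Tlx3cko DRGs, beside 2.56% of all genes tested. The list summed to between 4830 and 5677 normalized counts in control and between 3799 and 4096 in Tlx3cko libraries. Of the 8 markers of spinal cord neurons and glia, Mnx1 was at 0 in every library, Olig2, Slc6a5, Gad2 and Mog were under the count minimum, and Pax2 alone passed the threshold, with 26, 34 and 24 counts in controls and 5, 1 and 6 in Tlx3cko libraries. The spinal list summed to between 105.8 and 174.7 normalized counts in control and between 66.9 and 187.0 in Tlx3cko libraries. Skeletal muscle markers summed to between 103.7 and 1839 in control and between 1533 and 2845 in Tlx3cko libraries. Of the 6 muscle genes 1 passed the threshold as higher, beside 1.69% of all genes tested. The part of these differences in the group 11 result was not tested.

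The next group towards the anterior did not follow group 11 as a whole. Hoxd10, which like its paralogs is known for the identity of lumbar motor neurons, had 21, 25 and 54 counts in controls and 12, 0 and 17 counts in Tlx3cko libraries. All Tlx3cko libraries lay below the controls, and Tlx3cko replicate 2 had none. The log2 fold change was -1.61 (SE 0.65, adjusted p = 0.257 from the edgeR test), and its 95% interval ran from -3.03 to -0.20. With each library left out the log2 fold change ranged from -2.25 (without Tlx3cko replicate 3) to -1.09 (without Tlx3cko replicate 2), and against control replicate 3 alone it was -2.11. The adjusted p was 0.0223 without a filter on low counts and up to 0.5621 over the other alternatives. Of the exon bases of Hoxd10, 5.73% lie under Gm28309 on the same strand, the gene that also overlaps Hoxd11. The share of lumbar ganglia in each library is not known, and its part in the Hoxd10 difference was not tested.

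Hoxa10 had 279.6, 269.3 and 337.4 normalized counts in controls and 345.5, 389.7 and 384.8 in Tlx3cko libraries, where every value lay above the controls. The log2 fold change was 0.33 (SE 0.13, adjusted p = 0.228), and against control replicate 3 alone it was 0.14. Hoxc10 had 66.9, 58.8 and 63.8 normalized counts in controls and 64.5, 61.7 and 72.8 in Tlx3cko libraries. The difference of 0.07 on the log2 scale had a 95% interval from -0.41 to 0.56. Summed over group 10, the Tlx3cko level was 1.16 times that of control, from 1.10 to 1.24 times with each library left out.

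**Figure D3:**
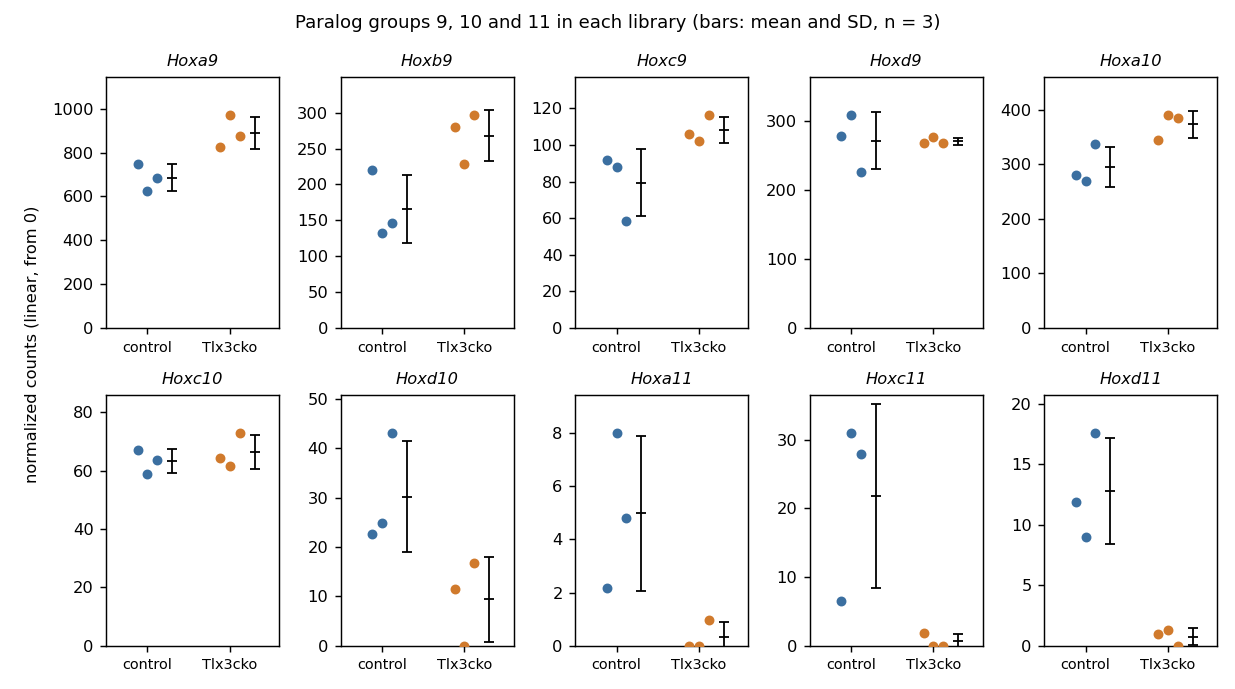
Normalized counts (vertical axes, linear from 0, scaled for each gene) of the 10 detected members of groups 9, 10 and 11 in each control and Tlx3cko library; bars beside the points give mean and SD (n = 3). Hoxd10 and all members of group 11 are lower in the Tlx3cko libraries, while Hoxa9, Hoxb9, Hoxc9 and Hoxa10 are higher without overlap.

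Group 9, known for the identity of thoracic levels, was higher in the Tlx3cko libraries in 3 of its 4 members without overlap, as were 8.87% of all genes tested. In edgeR 0 of the 4 passed the threshold. Of the 4, 2 (Hoxa9 and Hoxb9) had an unadjusted p under 0.05, beside 14.5% of all genes tested. DESeq2 called Hoxa9 and Hoxb9, and limma-voom called Hoxb9. Hoxb9 had 220.2, 131.7 and 146.0 normalized counts in controls and 280.1, 228.3 and 296.2 in Tlx3cko libraries. Its log2 fold change of 0.70 (SE 0.19) had an adjusted p of 0.066 in the edgeR test, 0.0151 in DESeq2 and 0.0376 in limma-voom, and over the alternatives the adjusted p ranged from 0.0016 to 0.2426. Hoxa9 had 749.1, 625.3 and 684.4 normalized counts in controls and 824.8, 969.7 and 876.9 in Tlx3cko libraries. This was a log2 fold change of 0.37 (SE 0.10, adjusted p = 0.0639 in edgeR and 0.0215 in DESeq2, with a range from 0.0153 to 0.2506 over the alternatives).

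Hoxc9 had 91.7, 87.8 and 58.2 normalized counts in controls and 105.9, 102.4 and 116.1 in Tlx3cko libraries, a log2 fold change of 0.46 (SE 0.22, adjusted p = 0.376). Control replicate 3 was lowest, and against it alone the log2 fold change was 0.89. Hoxd9 had 278.5, 308.2 and 226.5 normalized counts in controls and 267.6, 276.9 and 268.7 in Tlx3cko libraries, a log2 fold change of 0.00 with a 95% interval from -0.30 to 0.31. Summed over group 9, the Tlx3cko level was 1.28 times that of control, and it was between 1.23 and 1.36 times with each library left out in turn.

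At the anterior end, Hoxd1 had 1032, 947.5 and 751.4 normalized counts in controls and 623.7, 720.4 and 639.7 in Tlx3cko libraries. The groups did not overlap, and control replicate 3 lay closest to the Tlx3cko libraries. The Tlx3cko level was 72.6% of control, with a log2 fold change of -0.46 (SE 0.12, adjusted p = 0.0514 from the edgeR test), just outside the threshold. DESeq2 gave an adjusted p of 0.0117, limma-voom 0.0633, and edgeR with the replicate number as a block 0.0523. With each library left out in edgeR the adjusted p lay between 0.0134 and 0.1844. Without control replicate 3 the log2 fold change was -0.58 (adjusted p = 0.0134), and against control replicate 3 alone it was -0.19. The 2 controls with Xist counts were therefore the ones with the higher Hoxd1 level, and the part of the sex imbalance in the Hoxd1 difference was not tested.

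Of the anterior genes Hoxa2, Hoxb2, Hoxa3, Hoxb3 and Hoxd3, known mainly from hindbrain and neck development, 0 passed the threshold in edgeR, DESeq2 or limma-voom, 0 had an unadjusted p under 0.05 in edgeR and 0 had groups without overlap. Hoxb3 had 306.5, 239.4 and 199.4 normalized counts in controls and between 162.7 and 224.4 in Tlx3cko libraries (log2 fold change -0.39, SE 0.18, adjusted p = 0.367). Control replicate 3 lay within the range of the Tlx3cko libraries, and against it alone the log2 fold change was -0.07. The gene Hoxb3os on the opposite strand covers 52.9% of the exon bases of Hoxb3. It had a log2 fold change of -0.08 (adjusted p = 0.885).

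Among the central groups 4 to 8, which cover the cervical and upper thoracic levels, 15 members were tested. In edgeR, DESeq2 or limma-voom 0 passed the threshold. Of the 15, 2 (Hoxa6 and Hoxd8) had an unadjusted p under 0.05 in edgeR, beside 14.5% of all genes tested. Hoxa5 had 86.3, 121.7 and 88.5 normalized counts in controls and 129.9, 126.0 and 138.8 in Tlx3cko libraries, all above the controls, with a log2 fold change of 0.41 (SE 0.20, adjusted p = 0.360). Hoxa6 had 21.6, 24.9 and 16.8 normalized counts in controls and 54.9, 38.1 and 34.4 in Tlx3cko libraries, also without overlap. Its log2 fold change of 1.02 (SE 0.34, adjusted p = 0.144) was the largest positive one among the tested members.

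Hoxd8 went the other way, with 551.5, 496.7 and 459.5 normalized counts in controls and 386.9, 448.8 and 382.8 in Tlx3cko libraries (log2 fold change -0.31, SE 0.12, adjusted p = 0.221). Control replicate 3 was again the lowest control, and against it alone the log2 fold change was -0.18. Hoxa7, the member of cluster A with the highest level per kilobase, had 537.5, 508.7 and 423.6 normalized counts in controls and 504.3, 619.4 and 568.8 in Tlx3cko libraries, with overlap. The log2 fold change of Hoxa7 was 0.20, with a 95% interval from -0.06 to 0.47. Hoxb6 had a log2 fold change of -0.07 (95% interval -0.55 to 0.41), which was 0.39 against control replicate 3 alone, and Hoxc6 of 0.15 (-0.30 to 0.59).

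**Figure D4:**
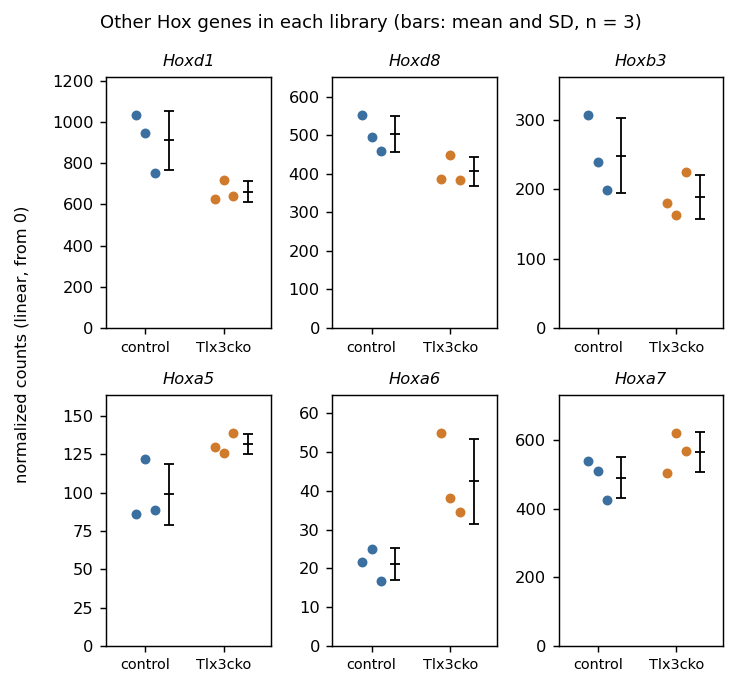
Normalized counts (vertical axes, linear from 0, scaled for each gene) of Hoxd1, Hoxd8, Hoxb3, Hoxa5, Hoxa6 and Hoxa7 in each library; bars beside the points give mean and SD (n = 3). Hoxd1 and Hoxd8 are lower in Tlx3cko libraries and Hoxa5 and Hoxa6 higher without overlap, while Hoxb3 and Hoxa7 overlap.

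By cluster, the total of all 38 genes differed between the genotypes by less than the spread of the controls, with 5103 ± 501 normalized counts (SD, n = 3) in controls and 5263 ± 199 in Tlx3cko libraries. Cluster D summed to 1920, 1837 and 1529 normalized counts in controls and 1313, 1481 and 1340 in Tlx3cko libraries. The ratio was 0.782 (0.734 to 0.819 with each library left out). Control replicate 3, whose Xist and Ddx3y counts resemble those of the Tlx3cko libraries, was the lowest control. Against it alone the log2 fold changes of Hoxd1 and Hoxd8 were -0.19 and -0.18. Leaving out 1 library always keeps a control with Xist counts, and the part of the sex imbalance in this ratio was not tested. Cluster D made up 34.5% ± 1.11 of all Hox counts in controls and 26.2% ± 0.924 in Tlx3cko libraries. Of its 7 tested members 4 (Hoxd1, Hoxd8, Hoxd10 and Hoxd11) were lower without overlap and 0 were higher, beside 10.8% and 8.87% of all genes tested. Of these, Hoxd11 entered the test through the control libraries alone.

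Cluster A summed to 1773, 1656 and 1635 normalized counts in controls and 1946, 2218 and 2073 in Tlx3cko libraries, a ratio of 1.23 (1.19 to 1.27 with each library left out). Its share of all Hox counts was 33.2% ± 2.18 in controls and 39.5% ± 1.11 in Tlx3cko libraries. Of its 9 tested members 4 were higher without overlap (Hoxa5, Hoxa6, Hoxa9 and Hoxa10) and 1 was lower (Hoxa11), beside 8.87% and 10.8% of all genes tested. Cluster B (ratio 1.09) and cluster C (ratio 1.11) had sums that overlapped between the groups. These sums are descriptions without a test. Hoxd1 and Hoxd8 held the most counts in cluster D, and Hoxa9 and Hoxa7 in cluster A.

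By position, the anterior groups 1 to 3 made up 26.3% ± 1.82 of all Hox counts in controls and 19.9% ± 0.134 in Tlx3cko libraries. Most of this was Hoxd1, whose share alone was 17.8% ± 1.17 and 12.6% ± 0.586, and whose difference was smaller against control replicate 3 alone as given above. The central groups 4 to 8 held 41.6% ± 1.49 and 42.3% ± 0.761. The posterior groups 9 to 13 held 32.1% ± 2.69 and 37.8% ± 0.627, of which group 9 alone held 23.6% ± 1.07 and 29.2% ± 0.273. The shares of the central groups overlapped, and those of the anterior and posterior groups did not. The number of ganglia from each level is not known, and its part in these shares was not tested.

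**Figure D5:**
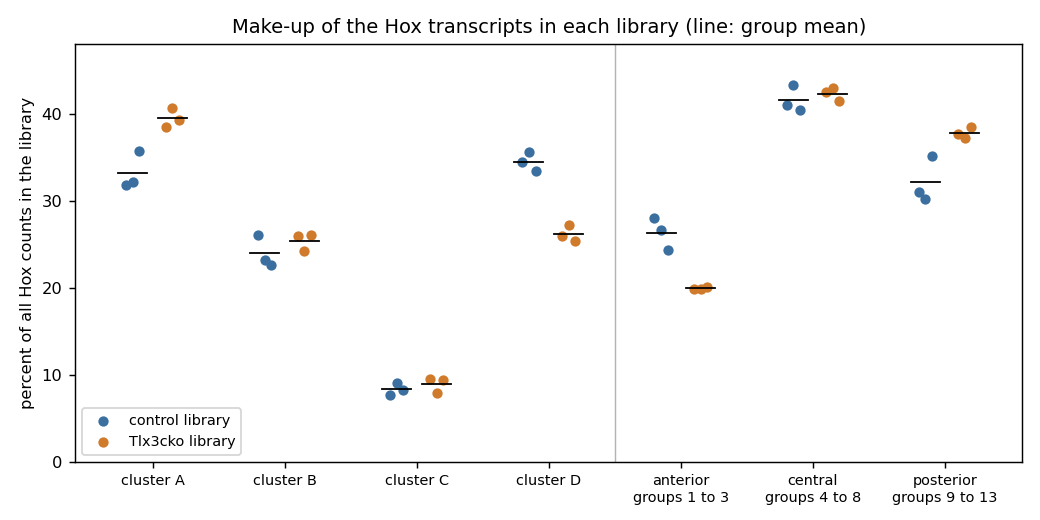
Share of all Hox counts (vertical axis, percent, linear from 0) held by each cluster and by anterior, central and posterior paralog groups in each library; black lines are group means. Cluster D and the anterior groups are lower and cluster A and the posterior groups higher in Tlx3cko libraries without overlap.

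Promoter windows of 300 bases, from 250 before to 50 after the start, were taken from RefSeq on GRCm38.p6. They are shown for the members with the largest relative differences and for Hoxd1, to set side by side members whose Tlx3cko values lay below the controls. Of the 38 members 22 had a window in that table. Hoxc11 was not among them. The windows are chr6:52245761-52246060 on the minus strand for Hoxa11, chr2:74682073-74682372 on the plus strand for Hoxd11, chr2:74691641-74691940 on the plus strand for Hoxd10 and chr2:74762730-74763029 on the plus strand for Hoxd1. For Hoxd11 the window nearest to the start of the coding transcript was used. Capitals mark matches, on either strand, to TATAAA (the TATA box), CCAAT (the CCAAT box), TGATTNAT (a site of Pbx and Hox proteins together) or AGGTCA (a half-site of nuclear receptors such as the retinoic acid receptors).
Hoxa11: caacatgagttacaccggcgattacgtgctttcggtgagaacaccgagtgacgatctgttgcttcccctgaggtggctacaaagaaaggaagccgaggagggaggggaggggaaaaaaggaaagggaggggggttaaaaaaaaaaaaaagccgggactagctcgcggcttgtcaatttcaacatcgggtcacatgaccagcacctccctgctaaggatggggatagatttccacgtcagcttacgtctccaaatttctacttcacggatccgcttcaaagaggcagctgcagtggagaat
Hoxd11: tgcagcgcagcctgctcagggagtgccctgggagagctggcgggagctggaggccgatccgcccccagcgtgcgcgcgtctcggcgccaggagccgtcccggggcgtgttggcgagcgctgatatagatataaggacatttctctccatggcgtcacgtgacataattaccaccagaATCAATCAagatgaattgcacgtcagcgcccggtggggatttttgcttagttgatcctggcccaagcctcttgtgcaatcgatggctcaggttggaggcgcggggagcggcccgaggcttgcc
Hoxd10: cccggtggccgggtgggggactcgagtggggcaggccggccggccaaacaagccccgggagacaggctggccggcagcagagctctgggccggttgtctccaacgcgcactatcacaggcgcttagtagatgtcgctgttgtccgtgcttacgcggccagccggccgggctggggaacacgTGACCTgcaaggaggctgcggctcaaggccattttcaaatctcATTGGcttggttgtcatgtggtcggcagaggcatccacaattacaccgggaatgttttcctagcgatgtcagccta
Hoxd1: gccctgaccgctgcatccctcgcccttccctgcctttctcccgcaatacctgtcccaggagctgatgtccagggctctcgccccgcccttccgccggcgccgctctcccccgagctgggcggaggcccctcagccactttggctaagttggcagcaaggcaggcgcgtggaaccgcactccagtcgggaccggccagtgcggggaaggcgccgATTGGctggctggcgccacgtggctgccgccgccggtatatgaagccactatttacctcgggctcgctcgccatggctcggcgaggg

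The 4 windows shared no motif throughout. Hoxd11 held TGATTNAT, Hoxd10 held CCAAT and AGGTCA, Hoxd1 held CCAAT, and Hoxa11 held none of the letters searched. Over all 32851 windows in the table, TATAAA was found in 13.6%, CCAAT in 37.4%, TGATTNAT in 3.22% and AGGTCA in 16.3%. All 4 windows were richer in CG dinucleotides than the median window (7), with 15 in Hoxa11, 25 in Hoxd11, 22 in Hoxd10 and 29 in Hoxd1. These matches describe the sequence and say nothing of binding in DRGs.

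Hox proteins bind DNA together with cofactors of the TALE homeodomain class, and their genes are set by retinoic acid and kept on or off by trithorax and Polycomb complexes. Of the 9 cofactor genes, Meis2 was higher in Tlx3cko DRGs, with 463.0, 319.2 and 313.5 normalized counts in controls and 661.2, 595.7 and 666.3 in Tlx3cko libraries. Its log2 fold change was 0.82 (SE 0.15, adjusted p = 0.0053 from the edgeR test), and it stayed past the threshold with each library left out in turn. Against control replicate 3 alone the log2 fold change was 1.03. The other 8 cofactors did not pass the threshold.

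Of 18 genes of the retinoic acid pathway 16 were tested in edgeR, where 1 was lower and 1 was higher, and DESeq2 and limma-voom each called 3. Rarg, which encodes the gamma receptor, had 607.7, 609.4 and 662.9 normalized counts in controls and 411.0, 312.3 and 317.9 in Tlx3cko libraries (log2 fold change -0.85, SE 0.13, adjusted p = 0.0014), and this call held with each library left out in turn. Rxra, which encodes the shared partner of the retinoic acid receptors, had 612.0, 494.7 and 560.8 normalized counts in controls and 782.5, 742.7 and 750.9 in Tlx3cko libraries (log2 fold change 0.45, SE 0.10, adjusted p = 0.0273). Removing 1 library at a time, the call was kept in 1 of 6 fits, the one without control replicate 1. The gene called by the other tools alone was Cyp26b1, which encodes an enzyme that breaks down retinoic acid and was singled out after its values were seen. It had 50, 34 and 70 counts in controls and 27, 1 and 6 in Tlx3cko libraries, without overlap. Its adjusted p was 0.086 in edgeR (log2 fold change -2.04, SE 0.60), 0.0146 in DESeq2 and 0.0498 in limma-voom.

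Of the 26 Polycomb genes 0 passed the threshold in edgeR, DESeq2 or limma-voom, and 0 had an unadjusted p under 0.05. Of 12 trithorax and H3K27 demethylase genes Kdm6a was lower, with 291.4, 223.4 and 182.7 normalized counts in controls and 129.0, 160.1 and 116.1 in Tlx3cko libraries (log2 fold change -0.79, SE 0.20, adjusted p = 0.0422 in edgeR). DESeq2 called it as well (adjusted p = 0.0083), and limma-voom did not (0.0520). Kdm6a is X-linked and known to escape X inactivation, and control replicates 1 and 2 were the libraries with Xist counts. Against control replicate 3 alone its log2 fold change was -0.44. Removing 1 library at a time, the call was kept in 1 of 6 fits, the one without control replicate 3.

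Of the other regulators of axial patterning, Egr2 was higher in Tlx3cko DRGs. This gene, known from hindbrain patterning and from myelination by Schwann cells, had 105.8, 95.7 and 125.2 normalized counts in controls and 158.8, 206.0 and 210.6 in Tlx3cko libraries (log2 fold change 0.81, SE 0.18, adjusted p = 0.0241). It kept its call in 2 of 6 fits with 1 library removed, those without Tlx3cko replicate 1 or control replicate 3. Against control replicate 3 alone its log2 fold change was 0.61. Cdx2, which lies upstream of posterior Hox genes in the embryo, had 0 counts in every library.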

How the data were processed

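DRG RNA was sequenced from 3 mice of each genotype, control and Tlx3cko, and the values used are those of the deposited table of read counts per gene, which holds raw counts as the authors made them, without normalization. The submitters' processing notes name STAR 2.5.2a and the build mm10. The counting program and its use of strand are not given in the sources used here. Samples were grouped by the genotype label. Gene names and exon lengths come from GENCODE M21 on GRCm38, which matched 47310 of 47729 Ensembl rows. The other 208 rows are unannotated loci, and 1 row that matches the rule for Hox genes and 1 gene of the regulator lists are not reported here.

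The software was edgeR 4.0.16, DESeq2 1.42.0 and limma 3.58.1 in R 4.3.3. After TMM scaling, every gene with a sum of 10 counts or more in the 6 libraries entered edgeR's quasi-likelihood F test (Benjamini-Hochberg adjusted p under 0.05), and the test was checked on simulated data. Intervals on ratios of counts are exact at 95% and cover counting error only. With 3 mice against 3, no exact permutation test of a single gene can pass 0.05, so none was run. Replicate libraries differed by more than sampling noise (chi-square per degree of freedom 4.32 to 10.1).

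Named are members past the threshold, the highest per kilobase in each cluster, the 5 largest changes among members averaging 50 or more normalized counts, Hoxd1 and the members at 0. Hoxa6, Hoxa9, Hoxa10, Hoxa11, Hoxc10, Hoxd8, Hoxd9 and Hoxd10 were singled out after their values were seen. Members, lists and alternatives were chosen with earlier results of these data known. Alternatives were other scalings (RLE, upper quartile), DESeq2, limma-voom, other filters and thresholds, the replicate number as a block, control replicate 3 alone and each library left out.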

Additional observations from a re-analysis of the deposited data

How the results depend on the processing

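The number of Hox genes past the threshold was 2 with RLE or upper-quartile scaling, 5 with DESeq2 (Hoxa9, Hoxb9, Hoxc11, Hoxd1 and Hoxd11), 1 with limma-voom (Hoxb9), 6 without a filter on low counts (those 5 and Hoxd10), 1 against control replicate 3 alone (Hoxc11) and 0 at adjusted p under 0.01. With edgeR's own filter, which left 26 of the 31 members and removed Hoxa11, Hoxc11 and Hoxd11 among others, it was 0 in edgeR. Of those 26 members 8 had an unadjusted p under 0.05. In the fit as reported 10 of 31 had one, beside 14.5% of all genes tested. Leaving out 1 library at a time, the number past the threshold ranged from 0 to 4. It was 0 without control replicate 2 and without either of Tlx3cko replicates 2 and 3 (7 to 11 members at an unadjusted p under 0.05 over these 6 fits), 1 without Tlx3cko replicate 1 (Hoxc11) or control replicate 3 (Hoxd1), and 4 without control replicate 1 (Hoxa9, Hoxb9, Hoxc11 and Hoxd11). No member is past the threshold in all of these settings.

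The labels do not say whether the replicate numbers pair the mice. The correlation of deviations between libraries of the same number was -0.13, -0.0471 and -0.071. Each value compares a single library of each genotype, so these values cannot decide whether the mice are paired. With the number as a block 2 Hox genes passed (Hoxb9 and Hoxc11; Hoxd11 had an adjusted p of 0.0662) and 770 genes in all.

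Of all genes tested, 851 passed (512 lower, 339 higher). The number was 1529 (858 lower, 671 higher) without the filter, 546 (193 higher) against control replicate 3 alone, 418 (278 lower, 140 higher) at adjusted p under 0.01, and 488 to 938 (310 to 530 lower, 175 to 408 higher) with each library left out. The genes past the threshold in the cofactor and regulator lists were 6, 2 against control replicate 3 alone and 2 to 6 with each library left out. The median log2 fold change of the tested Hox genes was 0.05, 0.25 against control replicate 3 alone and -0.0796 to 0.185 with each library left out. The log2 fold change of Hoxb6, -0.07, changed sign to 0.39 against control replicate 3 alone, to 0.10 without Tlx3cko replicate 3 and to 0.09 without control replicate 1, within a range from -0.27 to 0.10 over the fits without 1 library. The cause of these moves was not tested, other than that fewer libraries or genes entered the fits. In the fits against control replicate 3 alone that library is assumed to vary like the Tlx3cko libraries, so their calls say little. For group 11 the depth is the limit, with at most 2 counts in any Tlx3cko library.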

Other observations

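A list of 45 non-coding genes of the 4 clusters held genes chosen by name and the non-coding genes annotated between the outermost Hox genes. Of these, 14 were tested and 20 had 0 counts in every library. In edgeR 0 of the 14 passed the threshold, while DESeq2 called 1 and limma-voom 0. In edgeR 2 of the 14 had an unadjusted p under 0.05, both higher in Tlx3cko, beside 14.5% of all genes tested. The most abundant were Hoxaas3, an antisense RNA in cluster A, with 548.3, 587.4 and 541.6 normalized counts in controls and 633.3, 770.3 and 769.6 in Tlx3cko libraries (log2 fold change 0.37, SE 0.11, adjusted p = 0.0788 in edgeR), and Hoxb3os, with 464.1, 565.5 and 506.5 in control and 375.3, 569.5 and 513.7 in Tlx3cko libraries. Hoxaas3 covers 20.4% of the exon bases of Hoxa7 on the opposite strand. Hotair, the long non-coding RNA next to Hoxc11, had 0, 4 and 2 counts in control and 0 in each Tlx3cko library, too few to be tested. Haglr, in cluster D, had 170.5, 156.6 and 98.9 normalized counts in controls and 149.2, 187.6 and 157.5 in Tlx3cko libraries.

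The genes flanking the clusters gave no call either. Of 15 such genes present, 12 were tested, and in edgeR, DESeq2 and limma-voom 0 passed the threshold, with 0 at an unadjusted p under 0.05 in edgeR. Mtx2 had 449.0, 402.9 and 398.0 normalized counts in controls and 485.1, 364.8 and 384.8 in Tlx3cko libraries. Evx2, the homeobox gene beside Hoxd13, had 0 counts in every library, as did Hoxd13.

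Of the remaining marker lists, none of the genes for Schwann cells, mural cells, blood, macrophages, adipocytes, or bone and cartilage passed the threshold in edgeR (unadjusted p under 0.05 in 3, 3, 1, 1, 0 and 2 genes; DESeq2 called 3 Schwann cell genes and limma-voom 1). Over all genes tested, 14.5% had an unadjusted p under 0.05. Of 9 sensory neuron markers 3 passed the threshold as higher and 0 as lower, beside 1.69% and 2.56% of all genes tested. Without overlap between the groups, 5 of the 9 were higher and 3 lower, beside 8.87% and 10.8% of all genes tested. Past the threshold, 1 of 5 satellite glia markers and 1 of 5 endothelium markers was higher, beside 1.69% of all genes tested.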
